A study of Rattus norvegicus with 6 samples.

Results

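The genes described here encode the subunits of the nuclear RNA polymerases of the rat, measured by RNA-seq in RBL-2H3 cells. They were chosen as the rows of the deposited table whose symbol starts with Polr1, Polr2 or Polr3 followed by a letter (28 genes), together with LOC100912534, a placeholder symbol whose product is named RPABC3-like after a polymerase subunit. This gave 29 of 22601 genes listed. The Polr genes were chosen by name. LOC100912534 was chosen because it stood out between PIO and control in these same libraries, so its values are a description and it has no test here. The line RBL-2H3 was derived from a basophilic leukemia of the rat and stands in for mast cells in many laboratories; its genotype is labelled WT. The series compared 3 control libraries with 3 libraries of cells given PIO, described in the series' title as a PPARγ agonist, at 10 µM for 6 h. No vehicle is named for the control cells. Nothing in the labels ties a replicate to a culture of its own, so the spread between replicates may be technical and the p-values below speak only of that spread.

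RNA polymerase I transcribes the large ribosomal RNA precursor in the nucleolus, and RNA polymerase II transcribes messenger RNA. RNA polymerase III transcribes transfer RNA, a short ribosomal RNA that is not part of that precursor, and other short RNAs. Each enzyme has a pair of very large catalytic subunits, a set of small subunits that hold them together, and a stalk that binds the emerging RNA. Some of the small subunits are common to all of the enzymes, a further pair is common to polymerases I and III, and polymerase III carries an additional subcomplex for initiation.

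Whole reads could be recovered from the deposited FPKM values, and the libraries held 14048202 to 15084729 reads. FPKM scales the fragments of a gene by its length and by the depth of the library. Levels are set side by side between genes only as a description, since they also depend on how reads were assigned. Of 29 members 27 Polr genes and LOC100912534 passed the filter on low values (0.5 FPKM or more as the mean of all 6 libraries), and Polr2h did not, because it was listed at 0. All 7 mast cell and basophil markers examined were at 1 FPKM or more (Ms4a2 843 FPKM, Kit 303 FPKM). Of the 21 markers of macrophages, neutrophils, T cells, B cells, fibroblasts and adipocytes, 2 reached 1 FPKM (Cd68 at 1.5 FPKM and Col3a1 at 5.00 FPKM), and the summed level of the fibroblast and adipocyte markers was 5.01 to 5.57 FPKM in control and 4.65 to 4.97 FPKM with PIO. Of 10410 genes tested between PIO and control with limma and Benjamini-Hochberg adjustment, 4 passed an adjusted p of 0.05 (0.0384%), 1302 had an unadjusted p under 0.05 (12.5%), and 1931 had control and PIO values that did not overlap (18.5%).

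The DNA in front of these genes is shown for 5 members that the results return to, as the 150 bases before the annotated start, 5′ to 3′ on the gene's strand, from RefSeq on the assembly GRCr8. Polr2f is the most abundant member, Polr2j the Polr gene with the smallest p, and Polr2h, Polr2i and Polr2l the Polr genes with no or few reads. Capitals mark the letters CGGAAG on either strand (CTTCCG on the other), a core of the sites bound by ETS factors.
Polr2f, chr7:112592914-112593063, plus strand: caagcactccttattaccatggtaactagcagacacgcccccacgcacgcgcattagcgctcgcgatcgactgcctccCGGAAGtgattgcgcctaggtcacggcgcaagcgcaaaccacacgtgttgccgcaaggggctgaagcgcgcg
Polr2j, chr12:26185202-26185351, minus strand: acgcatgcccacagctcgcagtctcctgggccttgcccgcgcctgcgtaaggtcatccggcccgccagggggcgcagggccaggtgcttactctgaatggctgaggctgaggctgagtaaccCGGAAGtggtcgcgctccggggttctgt
Polr2h, chr11:93700872-93701021, minus strand: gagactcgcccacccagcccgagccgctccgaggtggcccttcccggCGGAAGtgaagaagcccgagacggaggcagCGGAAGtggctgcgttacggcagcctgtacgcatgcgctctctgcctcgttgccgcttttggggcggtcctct
Polr2i, chr1:94610826-94610975, plus strand: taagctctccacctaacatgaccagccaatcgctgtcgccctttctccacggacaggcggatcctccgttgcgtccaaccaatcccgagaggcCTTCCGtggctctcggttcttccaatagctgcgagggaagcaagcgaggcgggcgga
Polr2l, chr1:206001616-206001765, minus strand: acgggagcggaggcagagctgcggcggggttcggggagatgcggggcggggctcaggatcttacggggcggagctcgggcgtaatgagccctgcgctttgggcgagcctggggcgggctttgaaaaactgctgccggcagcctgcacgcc
Polr2h carried the letters at 2 places, Polr2f, Polr2j and Polr2i at 1 place each, and Polr2l at none in this window. A promoter was found for 24 of 29 members; those without one included LOC100912534, Polr2c, Polr2k and Polr3d. Over the 250 bases before the start, searched on both strands, CGGAAG was present in 12 of 24 members, against 13.9% of all 33469 promoters in the table and 16.8% of those of protein-coding genes. The GC box GGGCGG was present in 17 of 24, against 30.5% of all and 38.9% of protein-coding promoters. CCAAT was present in 6 of 24 (34.0% of all), the E-box CACGTG in 3 (Polr2f, Polr3c and Polr3g; 5.59% of all) and TATAAA in Polr2a alone (12.9% of all). AGGTCA followed by 1 base and AGGTCA again, the direct repeat known as an element bound by PPAR receptors, was in 0 of the 24 and in 0.0508% of all promoters. A match of letters is a description of the window and not a site, and its absence says only that the letters are not there.

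The subunit genes covered a wide range of levels. Polr2f, which encodes a small subunit common to all of the polymerases, was the highest, with 171, 159 and 145 FPKM in the control libraries (in the order of replicates 1 to 3, as in all such values) and 171, 164 and 178 FPKM in the PIO libraries. Polr1d, a small assembly subunit of polymerases I and III, was next with 137, 134 and 125 FPKM in control and 137, 136 and 136 FPKM with PIO. These lay at percentiles 95.4 and 94.3 of all genes tested. The groups overlapped in both genes, and control replicate 3 was the lowest of the 6 libraries in both. The rest of the subunits with a level above 80 FPKM were Polr2e (mean 90.8 FPKM over the 6 libraries), also common to all of the enzymes, and the polymerase II genes Polr2j (88.9 FPKM) and Polr2m (83.5 FPKM), the latter encoding GDOWN1, a protein that associates with polymerase II.

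**Figure D1:**
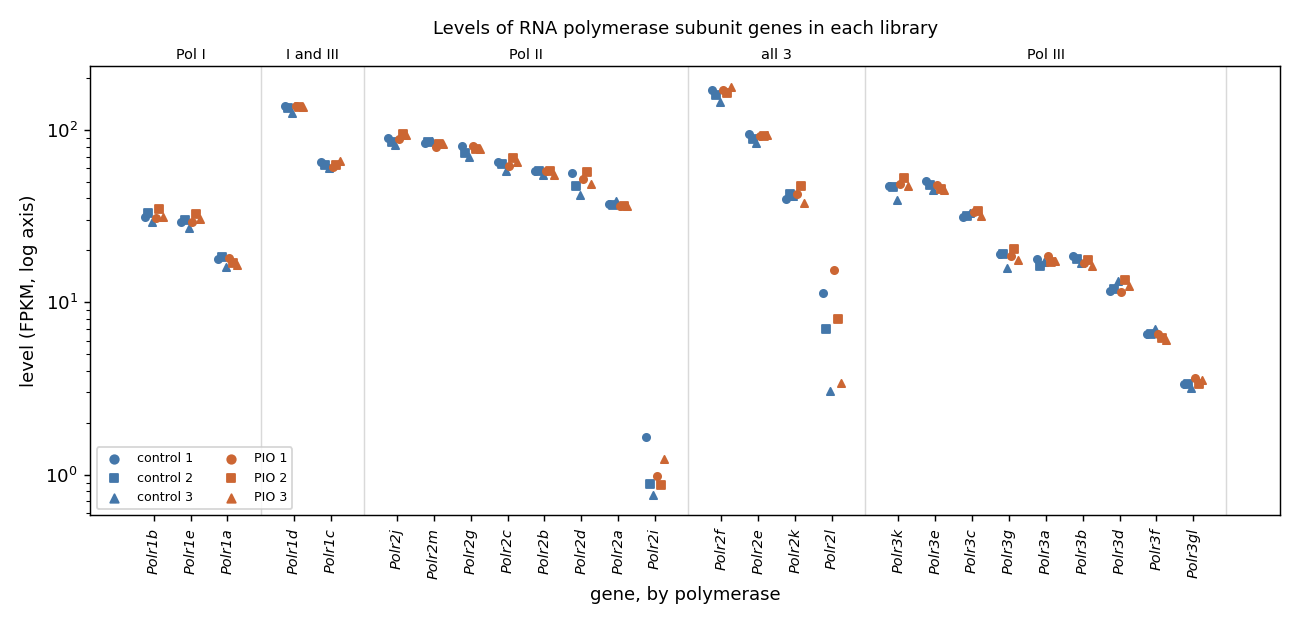
Level in FPKM (log axis) of 26 Polr genes in each of 6 libraries, by polymerase, with control in blue and PIO in orange and the replicate number as the marker shape; Polr2h, listed at 0, cannot be drawn on a log axis. Polr2f is highest at 145 to 178 FPKM, Polr2i lowest at 0.762 to 1.66 FPKM, and in most genes the points of both groups lie on top of each other, while those of Polr2l spread from 3.07 to 15.4 FPKM.

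The median level over the tested genes of each enzyme was 60.1 FPKM for polymerase II (8 genes), 29.7 FPKM for polymerase I (3 genes) and 17.9 FPKM for polymerase III (10 genes). It was 98.4 FPKM for the genes common to polymerases I and III (2 genes) and 66.3 FPKM for those common to all of them (4 genes). These classes hold tested genes with Polr symbols only, among them Polr2i and Polr2l with few reads, and not Polr2h. They leave out the polymerase I subunits listed as Twistnb, Cd3eap and Znrd1 (means of 18.4, 19.8 and 60.6 FPKM) and Crcp of polymerase III (17.5 FPKM). The genes that lead and end a class in level were Polr1b and Polr1a in polymerase I and Polr2j and Polr2i in polymerase II. In polymerase III the lowest was Polr3gl. Among the largest catalytic subunits, that of polymerase II was the most abundant. Polr2a, which encodes the largest subunit of polymerase II with its C-terminal repeat domain, stood at 37.3, 36.7 and 38.5 FPKM in control and 36.4, 36.3 and 36.2 FPKM with PIO. Polr1a, the largest subunit of polymerase I, stood at 17.9, 18.2 and 16 FPKM in control and 18, 16.8 and 16.4 FPKM with PIO. Polr3a, the largest subunit of polymerase III, stood at 17.9, 16.3 and 17.1 FPKM in control and 18.5, 17.1 and 17.4 FPKM with PIO. The ratio of Polr2a to Polr1a was 2.17 ± 0.208 in control and 2.13 ± 0.103 with PIO, and that of Polr2a to Polr3a 2.2 ± 0.0930 and 2.06 ± 0.0806 (SD, n = 3). Polr1a and Polr3a were close in level, with a ratio of 1.02 ± 0.0905 in control and 0.966 ± 0.0210 with PIO. For the second largest subunits, the ratio of Polr2b to Polr1b was 1.82 ± 0.0587 in control and 1.77 ± 0.105 with PIO, and that of Polr2b to Polr3b 3.19 ± 0.0706 and 3.35 ± 0.0677. Of these 5 ratios only that of Polr2b to Polr3b had groups that did not overlap (3.11 to 3.24 in control, 3.27 to 3.39 with PIO), and no test was made of it. Across the 27 tested Polr genes a longer gene went with a lower level (Spearman's rho -0.42, against -0.28 across all 10410 genes tested); both quantities of a gene come from the same row, and FPKM is itself divided by length.

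Levels of related subunits were close in some pairs and apart in others. The catalytic pair of polymerase III was close, with a ratio of Polr3b to Polr3a of 1.04 ± 0.0526 in control and 0.962 ± 0.0599 with PIO. Polr3g and Polr3gl encode alternative versions of a subunit of the initiation subcomplex of polymerase III. Polr3g stood at 19.1, 19.0 and 15.8 FPKM in control and 18.5, 20.3 and 17.5 FPKM with PIO, and Polr3gl at 3.36, 3.36 and 3.19 FPKM and 3.62, 3.34 and 3.56 FPKM. The ratio of Polr3g to Polr3gl was 5.43 ± 0.415 in control and 5.37 ± 0.625 with PIO (SD, n = 3). The stalk genes of polymerase II, Polr2g and Polr2d, had a ratio of 1.55 ± 0.109 and 1.51 ± 0.125. The assembly genes Polr1d and Polr1c had a ratio of 2.12 ± 0.0241 and 2.16 ± 0.0964. In each ratio of this paragraph the groups overlapped.

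Between PIO and control, no Polr gene passed the threshold in either direction. Of 27 tested, 0 had a limma adjusted p under 0.05 (0.0384% of all genes tested), 1 had an unadjusted p under 0.05 (12.5% of all genes), and limma-voom on the recovered reads called 0 and gave 0 at an unadjusted p under 0.05 (0.0672% and 13.3% of all genes by limma-voom). The log2 differences ran from -0.09 to 0.25, with a median of 0.047 against 0.009 over all genes tested, and 19 were higher with PIO and 8 lower (54.0% of all genes tested were higher). With values rescaled to TPM, 16 were higher, against 4429 of all 10410 genes tested, and the median was 0.019 against -0.019 over all genes. The 95% confidence interval of the difference lay within a fold of 1.5 in either direction for 26 genes. The exception was Polr2l, by its spread between replicates. Polr2i lay within it (-0.50 to 0.44), but its reads were few and this scale understates the differences of low genes. Values of 3 genes did not overlap between the groups, against 18.5% of all genes tested. They were Polr3k with PIO higher (10.5% of all genes) and Polr2a and Polr2m with PIO lower (8.09% of all genes).

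**Figure D2:**
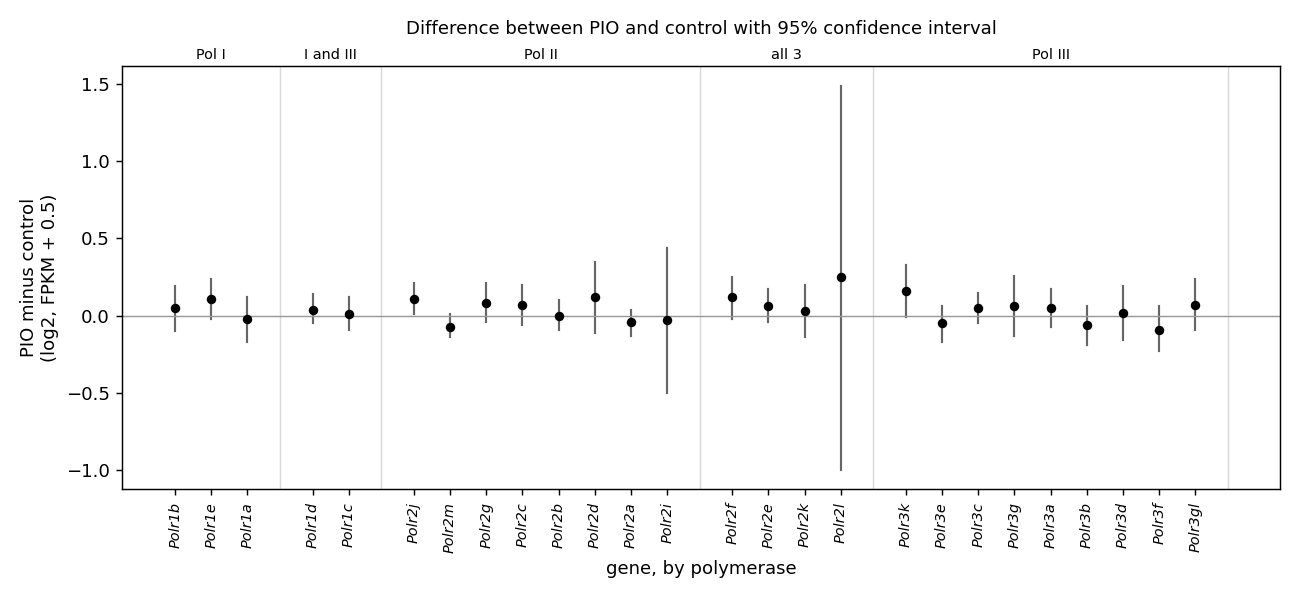
Difference between PIO and control of 26 tested Polr genes on the log2(FPKM + 0.5) scale, as the limma estimate (point) with its 95% confidence interval (line), by polymerase. The points lie between -0.09 and 0.25, none passed the adjusted threshold, and Polr2l and Polr2i have the widest intervals (-1.0 to 1.49 and -0.50 to 0.44).

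In polymerase I, the catalytic genes Polr1a (log2 difference -0.02, interval -0.17 to 0.12) and Polr1b (0.05, -0.10 to 0.19) and the accessory subunit Polr1e (0.11, -0.02 to 0.24) did not pass. Polr1b stood at 31.4, 32.9 and 29.1 FPKM in control and 30.7, 34.6 and 31.3 FPKM with PIO, with the groups mixed. Polr1e stood at 29.1, 29.9 and 26.8 FPKM in control and 29.3, 32.6 and 30.5 FPKM with PIO, so that the groups overlapped and PIO replicate 2 was the highest library (limma adjusted p = 0.474). Polr1c and Polr1d, held in common with polymerase III, differed by 0.01 (-0.09 to 0.12; 64.9, 62.5 and 59.8 FPKM in control, 60.8, 62.6 and 65.6 FPKM with PIO) and 0.04 (-0.05 to 0.14). The symbol rule misses 3 polymerase I subunits that the table lists under older names. Twistnb, the stalk subunit now named Polr1f, was the lowest of them in p, with 18.8, 20 and 19.4 FPKM in control and 18, 17.8 and 16.3 FPKM with PIO (log2 difference -0.15, unadjusted p = 0.019, limma adjusted p = 0.34). All 3 PIO libraries were below all control libraries in Twistnb. Cd3eap (now Polr1g) differed by 0.11 and Znrd1 (now Polr1h) by 0.07; neither passed.

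In polymerase II, Polr2j, a small subunit of the assembly platform, had the smallest p of the tested Polr genes. It stood at 89.8, 85.4 and 81.8 FPKM in control and 89.0, 94.5 and 93.2 FPKM with PIO, a log2 difference of 0.11 (SE 0.04, unadjusted p = 0.0414, limma adjusted p = 0.386). Control replicate 1 lay above PIO replicate 1, so the groups overlapped. Under TPM scaling and after a correction for gene length, Polr2m had the smallest p instead. The stalk gene Polr2g stood at 80.5, 73.6 and 69.3 FPKM in control and 80.9, 77.7 and 77.6 FPKM with PIO (0.08, adjusted p = 0.548), again with control replicate 1 among the PIO values. Its partner Polr2d, with 56.3, 47.0 and 42.1 FPKM in control and 52.0, 56.9 and 48.4 FPKM with PIO, varied between replicates 11.6 times as much as counting of reads alone would give, which is at percentile 94.2 of all genes tested. Polr2m was lower in every PIO library, with 84.1, 85.6 and 86.4 FPKM in control and 79.1, 82.8 and 82.8 FPKM with PIO (-0.07, limma adjusted p = 0.464). Polr2a was also lower in every PIO library by a small step (-0.04, interval -0.13 to 0.04, limma adjusted p = 0.623). Polr2b (0.00, -0.09 to 0.10) and the platform gene Polr2c (0.07, -0.06 to 0.20) overlapped between the groups.

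In polymerase III, Polr3k, a zinc ribbon subunit with a part in termination and RNA cleavage, was the single Polr gene with every PIO library above every control library. It stood at 47.1, 46.7 and 39.4 FPKM in control and 48.4, 52.6 and 47.2 FPKM with PIO (log2 difference 0.16, SE 0.07, limma adjusted p = 0.433). The step between the highest control and the lowest PIO library was small beside the distance of control replicate 3 from the other controls, and without control replicate 3 the log2 difference was 0.07. On the lower side were Polr3f of the initiation subcomplex (6.56, 6.51 and 6.97 FPKM in control, 6.55, 6.18 and 6.02 FPKM with PIO; -0.09, limma adjusted p = 0.572), the catalytic subunit Polr3b (18.5, 17.8 and 16.9 FPKM, then 17.0, 17.7 and 16.3 FPKM; -0.06, adjusted p = 0.636) and Polr3e, of the dimer that resembles TFIIF (50.3, 48.1 and 44.9 FPKM, then 47.9, 45.2 and 44.6 FPKM; -0.05, adjusted p = 0.668). In all of these the groups overlapped. Polr3a, Polr3c, Polr3d, Polr3g and Polr3gl had log2 differences between 0.02 and 0.07. Crcp, a further polymerase III subunit outside the symbol rule, stood at 18.6, 17.5 and 18.4 FPKM in control and 16.8, 17.4 and 16.6 FPKM with PIO (-0.10, limma adjusted p = 0.431). The groups of Crcp did not overlap.

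Among genes with Polr symbols, the median log2 difference was 0.047 for polymerase I, 0.038 for polymerase II and 0.032 for polymerase III. It was 0.029 over the pair common to I and III and 0.088 over the genes common to all. Control replicate 3 moved with this lean towards PIO. PIO replicate 2 did so in the median over the 27 genes but not in every class. Control replicate 3 was the lowest of the 6 libraries in 17 of 27 Polr genes (63.0%), against 24.2% of all genes tested. Its median deviation from the gene's own mean was -0.10 on the log2 scale, while those of the other 5 libraries lay between -0.00 and 0.03. Without control replicate 3 the median log2 difference over the 27 genes was 0.007, with 14 higher, and the class medians were -0.001 (I), -0.002 (II), 0.014 (III), -0.005 (I and III) and 0.029 (all). PIO replicate 2 was the highest of the 6 libraries in 10 of 27 Polr genes (37.0%), against 17.1% of all genes tested. Without PIO replicate 2 the median over the 27 genes was 0.031, with 16 higher, and the class medians were -0.005 (I), 0.041 (II), -0.015 (III), 0.033 (I and III) and 0.106 (all).

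**Figure D3:**
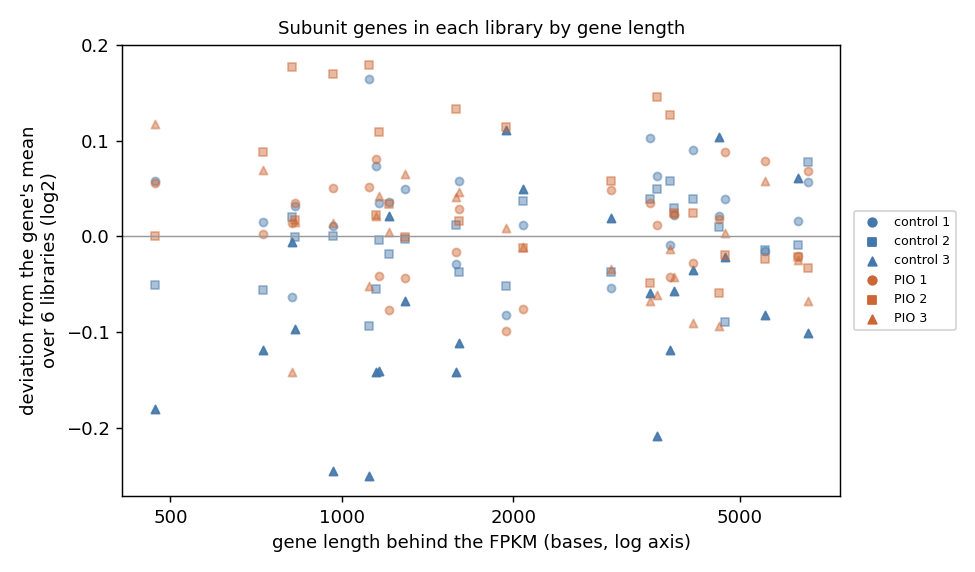
Deviation of each of 25 tested Polr genes from its own mean over the 6 libraries (log2) against the gene length behind the FPKM (bases, log axis), with control in blue and PIO in orange, the replicate number as the marker shape and control replicate 3 drawn darker; Polr2i and Polr2l are left out because of their few reads. Control replicate 3 lies below 0 in 19 of 25 genes, down to -0.25, and its lowest points are Polr2d (1115 bases) and Polr3k (966 bases).

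Gene length moved with these differences. Of the 13 tested Polr genes shorter than the median member (1606 bases), 11 were higher with PIO, with a median of 0.083, and of the 14 others 8 were higher, with a median of 0.010. The same split over all genes tested gave 1707 of 2425 higher (median 0.048) and 3911 of 7985 higher (median -0.002). Spearman's rho between length and log2 difference was -0.52 across the 27 members and -0.27 across all genes. After each library's trend with length was subtracted, the median over the members was 0.032, with 16 of 27 higher. The part of length, of control replicate 3 or of PIO replicate 2 in the differences was not tested further.

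Among the genes common to all of the polymerases, 4 were tested and none passed. Polr2e and Polr2f, with the protein names RPABC1 and RPABC2, differed by 0.06 (-0.04 to 0.17) and 0.12 (-0.02 to 0.25; limma adjusted p = 0.463), and Polr2k (RPABC4) by 0.03 (-0.14 to 0.20). Polr2l (RPABC5), with the shortest gene of them at 375 bases, stood at 11.3, 6.99 and 3.07 FPKM in control and 15.4, 8.01 and 3.41 FPKM with PIO. These values come from 64, 37 and 17 reads in control and 81, 43 and 18 reads with PIO, and they vary between replicates 17.4 times as much as counting would give (percentile 96.7 of all genes tested). Libraries with the same replicate number lay close together in Polr2l while the numbers were far apart. Of all genes tested, 8 (0.0768%) split this way, with means of the same-numbered libraries spread over more than 1 log2 unit and same-numbered libraries within 0.5, and Polr2l was the only member. The rule for this count was set after the values of Polr2l were seen. The log2 difference of Polr2l between the groups was 0.25, with an interval from -1.0 to 1.49.

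Polr2h, which encodes RPABC3, had the value 0 in each of the 6 libraries. As background, every nuclear polymerase holds this subunit. The other genes of its class stood between 8.03 and 165 FPKM on average. Its row allows up to 3 reads per library for counting error only, and an exact 0 can also be a row to which reads were not assigned. LOC100912534 (GeneID 100912534) is annotated in the deposited table as RPABC3-like. Its 6 values were 2.42, 3.30 and 2.46 FPKM in control and 10.0, 8.77 and 10.8 FPKM with PIO, from 29, 37 and 29 reads in control and 112, 100 and 121 reads with PIO. The lowest PIO library was above the highest control library, and the ratio of the means was 3.62. Within each group the reads varied 1.11 times as much as counting alone would give. Since LOC100912534 was chosen by this contrast, the difference is a description. Its mean of 2.73 ± 0.494 FPKM in control lay below that of Polr2l (7.13 ± 4.12 FPKM), and its mean of 9.86 ± 1.02 FPKM with PIO was within the spread of Polr2l there (8.93 ± 6.04 FPKM; SD, n = 3). In both groups LOC100912534 was under the lowest library of Polr2e, Polr2f and Polr2k. Reads can be shared or split between a gene and a near copy. This was not tested here, and the values of Polr2h and LOC100912534 remain uncertain.

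**Figure D4:**
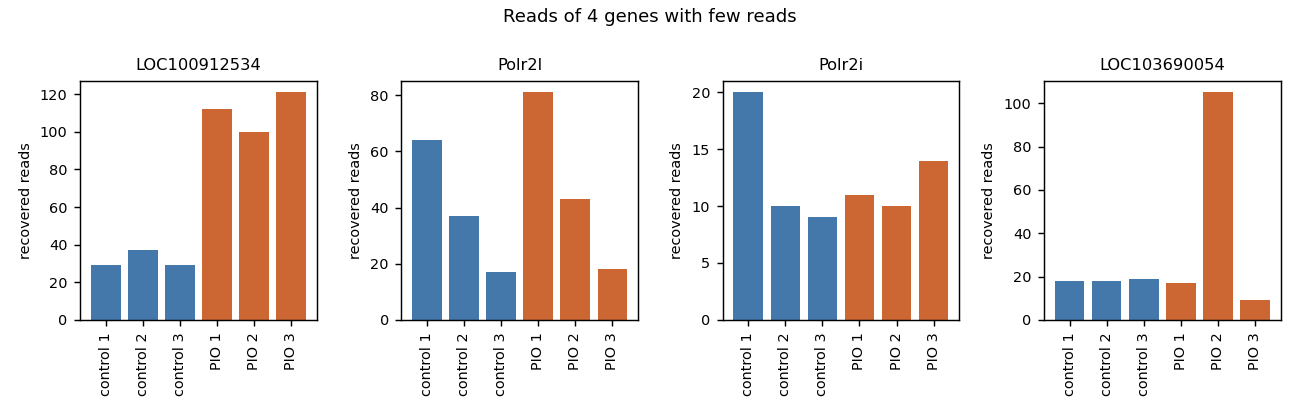
Recovered reads per library (bars, from 0) of LOC100912534, Polr2l, Polr2i and LOC103690054, with control in blue and PIO in orange. LOC100912534 has 29 to 37 reads in control and 100 to 121 with PIO, Polr2l separates by replicate number, and LOC103690054 has 105 reads in PIO replicate 2 against 9 to 19 elsewhere.

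A further 6 rows carry a product name of an RNA polymerase subunit without a Polr symbol, and they were looked up after the values of LOC100912534 and Polr2h were seen. Polr2i, the zinc ribbon subunit RPB9 of polymerase II, was the lowest member above 0, with 1.66, 0.887 and 0.762 FPKM in control and 0.980, 0.874 and 1.24 FPKM with PIO, from 9 to 20 reads. The row LOC103690054, also named RPB9, stood at 2.67, 2.85 and 2.88 FPKM in control and 2.71, 16.4 and 1.43 FPKM with PIO, so that PIO replicate 2 stood far above the rest. The ratio of Polr2c to Polr2i was 62.0 ± 19.9 in control and 64.6 ± 13.0 with PIO (SD, n = 3), although both encode polymerase II subunits. LOC100911840, named RPABC5-like after the product of Polr2l, had 0 to 2 reads per library. LOC501416, named after GRINL1A (a synonym of Polr2m), had 10, 7 and 8 reads in control and 5, 4 and 2 with PIO, under the filter on low values. LOC102552708, LOC103694215 and LOC681193 were listed at 0 throughout. Whether reads of Polr2i or Polr2l were shared with such rows was not tested, so their values remain uncertain. Reads of Polr2i and LOC103690054 together were 38, 28 and 28 in control and 28, 115 and 23 with PIO. Those of Polr2l and LOC100911840 together were 64, 38 and 17 in control and 83, 43 and 19 with PIO.

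Genes of the factors that work with the polymerases were set beside them. Of 158 symbols in 8 lists of partners, 156 were in the table, 153 were tested and 0 passed the adjusted threshold. Not in the table were Taf4 and Cavin1, the latter present under its older name Ptrf, which the lists also hold. Of the tested genes 15 had an unadjusted p under 0.05 (12.5% of all genes tested), and limma-voom also called 0. Higher with PIO were 89 and lower 64, with a median of 0.014. Under TPM scaling 70 of 153 were higher, with a median of -0.014. Over all genes tested 4429 of 10410 were higher in that scaling, with a median of -0.019. Of the 5 subunits under other symbols 3 were higher (median 0.072), and 2 without control replicate 3 (median -0.025). The assembly and import factors, which build the polymerases in the cytoplasm and carry them to the nucleus, had the largest median of the lists: 10 of 13 were higher (median 0.080), and 7 of 13 without control replicate 3 (median 0.025). In this list Gpn2, a GTPase of polymerase assembly, had the smallest p of all partners, with 31.6, 33.5 and 32.7 FPKM in control and 36.1, 36.6 and 37.9 FPKM with PIO (log2 difference 0.17, unadjusted p = 0.00257, limma adjusted p = 0.28). The groups of Gpn2 did not overlap. Such a separation was seen in 35 of the 153 partners tested, against 18.5% of all genes tested.

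**Figure D5:**
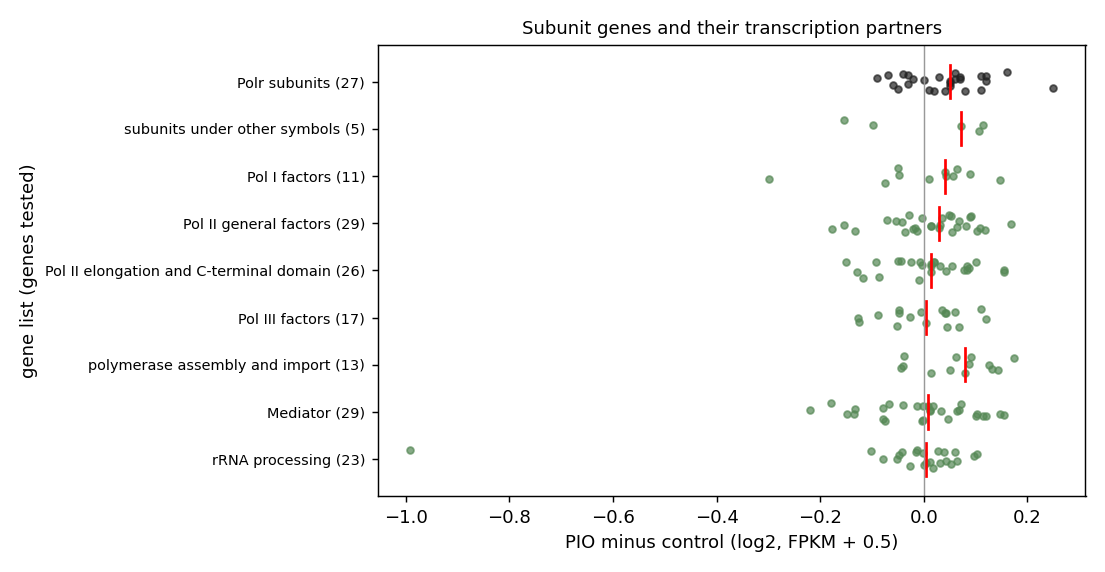
Difference between PIO and control (log2, FPKM + 0.5) of each tested gene in the Polr set (black) and in 8 lists of partners (green), with the median of each list as a red line and the number of genes tested in brackets; the vertical scatter has no meaning. The medians lie between 0.004 and 0.080, no gene passed the adjusted threshold, and the point at -0.99 is Nhp2.

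Of the polymerase I factors 7 of 11 were higher (median 0.041), and 4 of 11 without control replicate 3 (median -0.041). Among the higher ones was Tcof1, a nucleolar factor of ribosomal RNA transcription (0.09, limma adjusted p = 0.402), and Rrn3, which recruits polymerase I, was on the lower side (-0.07, adjusted p = 0.53). Of the general factors of polymerase II 17 of 29 were higher (median 0.030); Taf1, the largest subunit of TFIID, went from 9.67 ± 0.365 to 8.51 ± 0.630 FPKM (SD, n = 3; -0.18, adjusted p = 0.371). Of the elongation and C-terminal domain factors 15 of 26 were higher (median 0.014), and 10 under TPM scaling (median -0.014). The groups did not overlap in Supt4h1, a subunit of the elongation factor DSIF (40.0 ± 0.953 and 44.6 ± 1.70 FPKM; 0.15, adjusted p = 0.304), or in its partner Supt5h (67.6 ± 0.669 and 71.8 ± 1.47 FPKM; 0.09, adjusted p = 0.372). Of the Mediator genes 15 of 29 were higher (median 0.008), and 11 under TPM scaling (median -0.021), with Med15 at 21.9 ± 0.381 and 24.3 ± 0.856 FPKM (0.15, adjusted p = 0.31). The groups also did not overlap in Tcof1, Taf1 and Med15, and they overlapped in Rrn3.

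Of the polymerase III factors 9 of 17 were higher (median 0.004), 6 without control replicate 3 (median -0.009) and 8 under TPM scaling (median -0.025). Gtf3c6 (0.11, limma adjusted p = 0.375) and Gtf3c3 (-0.13, adjusted p = 0.389), both subunits of TFIIIC, lay on opposite sides, each with groups that did not overlap. Of the ribosomal RNA processing genes 13 of 23 were higher (median 0.004), 10 without control replicate 3 (median -0.046) and 8 under TPM scaling (median -0.025). Nhp2, of the particles that guide pseudouridylation, was at 11.5, 73.8 and 10.0 FPKM in control and 10.8, 10.6 and 8.96 FPKM with PIO; its log2 difference of -0.99 was -0.08 without control replicate 2. Polrmt, the polymerase of mitochondria, stood at 14.8, 14.2 and 15.2 FPKM in control and 16, 16 and 15.6 FPKM with PIO (0.11, limma adjusted p = 0.402), with every PIO library above every control library.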

How the data were processed

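RNA-seq of RBL-2H3 cells gave 6 libraries, 3 control and 3 PIO. The authors deposited FPKM values per gene and library. The submitters' processing notes name BWA 0.7.5a and HISAT2 2.2.1.0. They also list DESeq, Cufflinks and HTSeq, and SAMtools 1.3.1, FastQC 0.11.5 and Trimmomatic 0.36, each with no role or order. The build in the notes is GRCh38, although the gene identifiers are of the rat, so the build used is uncertain. The coordinates printed belong only to the RefSeq promoters of GRCr8, matched by GeneID (28 of 29 members were in the RefSeq gene table). Per the labels' protocols a stranded mRNA kit was used; whether counting used the strand was not stated.

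Whole reads and a whole gene length, within 0.001 of a read, were recovered for 15429 of the 15429 genes above 0; the recovered reads summed to 99.5% of the library totals. Where a common factor divides the length and all reads of a gene, the smallest solution was taken. Floors of 3 reads cover counting error only. Genes averaging 0.5 FPKM or more were tested by limma (version 3.58.1, under R 4.3.3) on the log2(FPKM + 0.5) scale. The model held the group alone and used a variance trend, two-sided tests and Benjamini-Hochberg adjustment over 10410 genes at 0.05. This scale understates the differences of low genes. An exact permutation test of 3 against 3 cannot go below 0.1 and was not used. Excess variation is Pearson's chi-square over its degrees of freedom within groups. The code was tested on simulated data. Tables and figures used matplotlib 3.10.9, scipy 1.17.1, pandas 2.3.3 and numpy 2.4.6 under Python 3.11.15.

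The members, the partner lists and the motifs were chosen with earlier results of these data known. Values in every library are given for members that lead or end a class in level, for the 5 Polr genes of lowest p on either side, for members at 0 and for LOC100912534. The values of 1 member are not reported here, although it is in the counts and medians. Of each partner list, examples come from the 4 genes with the smallest p, and all of the list of subunits under other symbols may be named. The 20 alternatives were other pseudocounts, filters, scalings and variance fits, sample weights, a replicate block, limma-voom on recovered reads, each library left out and, added after the data were seen, a correction for gene length.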

Additional observations from a re-analysis of the deposited data

How the results depend on the processing

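Under all 20 alternatives no Polr gene and no partner gene passed the adjusted threshold; the smallest adjusted p of a Polr gene was 0.286 (limma, Polr2j, sample weights). The number of all genes called, 4, was 1 without a filter, 2 without a variance trend, 7 with a robust fit and 7 with limma-voom, and 3 to 4 with a library left out. Polr genes at an unadjusted p under 0.05 numbered 1; there were 0 under median-of-ratios scaling, without a variance trend and with limma-voom, and 0 to 6 with a library left out, the 6 without control replicate 1 (13.8% of all genes in that fit) and 0 without control replicate 3, PIO replicate 2 or PIO replicate 3.

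Of 27 tested Polr genes 16 kept their sign throughout. With 1 library left out, the Polr1b log2 fold change ranged from -0.0045 to 0.09, and the others from -0.08 to 0.01 in Polr1a, -0.02 to 0.04 in Polr1c, -0.02 to 0.03 in Polr2b, -0.18 to 0.20 in Polr2i, -0.05 to 0.11 in Polr2k, -0.24 to 0.77 in Polr2l, -0.04 to 0.08 in Polr3d, -0.02 to 0.11 in Polr3g and -0.03 to 0.19 in Cd3eap. The sign also turned after the length correction in Polr1a (0.01), Polr1c (-0.02), Polr1d (-0.01), Polr2k (-0.02) and Polr3d (-0.01), under TPM scaling in Polr1c (-0.01), Polr2b (-0.03) and Polr3d (-0.01), and in Polr2b under median-of-ratios scaling (-0.0027), quantile normalization (-0.01) and sample weights (-0.01). The cause was not tested. With a minimum mean of 5 FPKM, 25 Polr genes were tested.

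The median over the Polr genes ran from 0.007 (without control replicate 3) to 0.071 (without control replicate 1), where that of the polymerase II genes was 0.124. After the length correction the median of the pair common to polymerases I and III was -0.015. For LOC100912534, chosen by this same contrast, the log2 difference ran from 1.55 with a pseudocount of 1 to 1.85 with limma-voom. Refits of the same values are a description and add no support for that difference. Deviations of same-numbered libraries correlated weakly, at -0.068, 0.028 and 0.078 across 10410 genes, and control replicate 1 correlated best with PIO replicate 2 (0.082). These values cannot tell whether same-numbered libraries were handled together. With a replicate block 3 genes were called, 0 of them Polr genes, 2 Polr genes had an unadjusted p under 0.05 (11.7% of all genes in that fit), and the limma adjusted p of Polr2l was 0.383. Polr2h, at 0 in every library, allowed no comparison. Polr2i was tested on 9 to 20 reads per library, with an interval from -0.50 to 0.44.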
